A study of Caenorhabditis elegans with 10 samples.

Results

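The COPII and COPI vesicle coat genes of Caenorhabditis elegans were taken as 10 genes chosen by their products, 5 for the COPII coat and its assembly (sar-1, sec-23, sec-24.1, sec-24.2 and tfg-1) and 5 for subunits of the COPI coat (copa-1, copb-1, copb-2, copg-1 and copd-1). They are 10 of the 46756 genes in the count table, and all 10 were among the 16817 genes that passed the filter on low counts and were tested. The choice was made with earlier results of these data known. The RNA came from whole larvae of the early L1 stage that had hatched overnight without food, in 5 biological replicates of each of 2 strains, with replicate numbers 1, 4, 5, 6 and 7. The comparison asked which genes change when PBRM-1, the Polybromo subunit of the PBAF chromatin remodeling complex, is removed from mesodermal tissue.

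Both strains carried pbrm-1(rd31[pbrm-1::GFP(flox)]), in which pbrm-1 is tagged with GFP and its last exons are flanked by loxP sites, and both carried a single-copy transgene selected by rescue of an unc-119 mutation. In pbrm-1(TS-KO) the transgene was rdIs74, which drives GFP-nanobody::ZIF-1::Cre from the hnd-1 promoter, deletes the floxed exons and sends the tagged protein for degradation. In pbrm-1(control) it was rdIs79, which drives ZIF-1 from the same promoter, without nanobody and without Cre. The hnd-1 promoter acts in the mesodermal descendants of the MS, C and D blastomeres, which include body wall muscles and the precursors of the somatic gonad, so pbrm-1 was left intact in most of the animal, and a change in those cells is diluted by RNA from all others. The authors also noted pbrm-1(TS-KO) larvae that had lost GFP in every tissue. In RNA from whole larvae, fewer cells of a type and less RNA per cell cannot be told apart.

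Vesicle coats carry proteins and lipids between the endoplasmic reticulum (ER) and the Golgi. COPII forms at ER exit sites, where the GTPase SAR1 recruits an inner layer of SEC23 and SEC24 and an outer cage of SEC13 and SEC31, and the vesicles carry newly made secreted and membrane proteins toward the Golgi. COPI, also called coatomer, is recruited to Golgi membranes by the GTPase Arf1 and returns escaped ER residents and cargo receptors. Both coats are used in all cell types and are in high demand in cells that secrete much, such as those that make collagen or yolk.

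The 10 libraries were of like depth. The counts on genes were between 35922561 and 46553938 per pbrm-1(TS-KO) library and between 36354418 and 45126931 per pbrm-1(control) library, and each coat gene had at least 1834 counts in every library. Levels are given as CPM, each gene's counts divided by the library's total and scaled up by a constant, after TMM scaling. Each gene was tested by edgeR's quasi-likelihood method, p-values were adjusted by Benjamini and Hochberg's procedure over all 16817 genes, and a gene was called at an adjusted p of at most 0.05 with no limit on the fold change. Of all genes tested, 4.28% were called lower in pbrm-1(TS-KO) and 3.44% higher, and the median log2 fold change over all of them was 0.0005. Gene counts of pbrm-1 itself were 247 ± 11.5 CPM in pbrm-1(TS-KO) and 263 ± 23.9 CPM in pbrm-1(control) (SD, n = 5, adjusted p = 0.433), which is a weak check of the labels, since only part of the gene is deleted and only in some cells. Testing single exons, the paper reported a significant reduction in pbrm-1(TS-KO) for most of the exons that Cre removes. The pbrm-1(control) library of replicate 5 stood apart in dpy-7, a cuticle collagen gene of the epidermis. Its level of dpy-7 was 67.5 CPM, against at most 6.18 CPM in the other controls. The counts of coat genes are therefore also given without that library.

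All 10 coat genes had a lower fitted level in pbrm-1(TS-KO), and their log2 fold changes ran from -0.42 for tfg-1 to -0.13 for copb-1 and a median of -0.19. Of all genes tested, 49.9% had a log2 fold change below 0. A lower level was called for 6 of the 10 (sar-1, sec-23, sec-24.1, tfg-1, copa-1 and copd-1), against the 4.28% of all genes, and a higher level was called for 0 of 10, by edgeR and in every alternative, with 0 higher at an unadjusted p under 0.05 in edgeR. Since the coat genes were chosen with earlier results of these data known, their contrast with all genes is a description and not a test. Among the COPII genes 4 of 5 were called, with a median of -0.30, and among the COPI genes 2 of 5, with a median of -0.19. The difference between the coats was not tested. The changes were small, the largest being tfg-1, whose mean level in pbrm-1(TS-KO) was 74.6% of that in pbrm-1(control). Without the pbrm-1(control) library of replicate 5 all 10 values remained below 0, with a median of -0.16, but only sec-23 and copa-1 were called, 1 gene of each coat, against 3.22% of all genes in that fit. Over the 10 fits that each left out 1 library, between 2 and 6 coat genes were called, and all 6 only without pbrm-1(control) replicate 7. Over all genes and both directions, these 10 fits called between 811 and 1204, against 1299 with all libraries. The call of sec-23 held in 10 of these fits, that of sar-1 in 8, that of copa-1 in 6, and those of sec-24.1, tfg-1 and copd-1 in 2 each. Without the pair of libraries of replicate 6, 0 coat genes were called by edgeR, with adjusted p from 0.0578 for sec-23 to 0.354 for copb-1. In that fit 9 of 10 had an unadjusted p under 0.05. It called only 408 of all genes in either direction, the fewest of any fit.

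**Figure D1:**
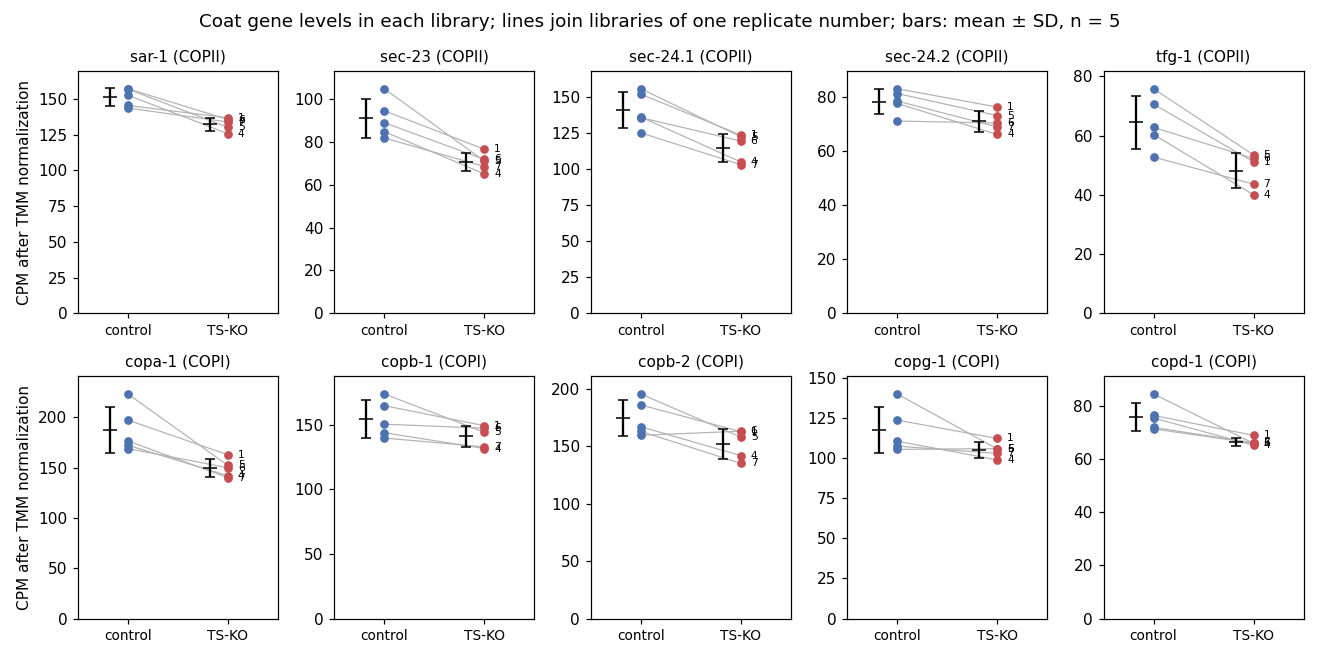
Level of each coat gene in each library, in CPM after TMM scaling on an axis that starts at 0, for pbrm-1(control) in blue and pbrm-1(TS-KO) in red. Numbers are replicate numbers, grey lines join libraries of 1 replicate, and bars are the mean ± SD of 5 libraries. The red points lie below all blue points for sar-1, sec-23, sec-24.1, copa-1 and copd-1, and in the other panels the strains overlap.

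COPII assembly starts with sar-1 (WBGene00022678, WBcel235 chromosome IV, 4511893 to 4513319), the small GTPase that inserts into the ER membrane and recruits the inner coat. Its level was 136.9, 125.8, 130.2, 135.7 and 134.0 CPM in pbrm-1(TS-KO) replicates 1, 4, 5, 6 and 7. In pbrm-1(control) it was 145.6, 152.8, 157.1, 157.3 and 143.8 CPM. The strains did not overlap, and the libraries within each strain lay close together, with a coefficient of variation of 3.42% in pbrm-1(TS-KO) and 4.19% in pbrm-1(control). The log2 fold change was -0.19 (SE 0.0426, adjusted p = 0.0205). Without the pbrm-1(control) library of replicate 5 it was -0.18 and the adjusted p was 0.0556.

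The inner coat gene sec-23 (WBGene00004754, chromosome V, 20091263 to 20105685) encodes the subunit that stimulates GTP hydrolysis by SAR-1 and pairs with SEC-24. Its level was 76.6, 65.1, 71.1, 71.8 and 68.5 CPM in pbrm-1(TS-KO) replicates 1, 4, 5, 6 and 7, and 94.6, 84.8, 104.9, 89.0 and 81.9 CPM in the same replicates of pbrm-1(control). The strains did not overlap, and replicate 5 of pbrm-1(control) was the highest library. The log2 fold change of sec-23 was -0.37 (SE 0.0705, adjusted p = 0.00993), and without that library it was -0.31 (adjusted p = 0.0168). Of its exonic bases, 2.0% are shared with ncx-1 on the opposite strand, which did not pass the test (log2 fold change -0.08, adjusted p = 0.255).

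SEC-24 binds the cargo, and the worm has a pair of genes for it. The first, sec-24.1 (WBGene00004755, chromosome IV, 11561986 to 11566194), had 123.8, 105.1, 122.6, 119.6 and 103.2 CPM in pbrm-1(TS-KO) replicates 1, 4, 5, 6 and 7. In pbrm-1(control) it had 152.2, 136.3, 156.0, 135.9 and 125.3 CPM. The strains were separated by a small gap, between replicate 1 of pbrm-1(TS-KO) and replicate 7 of pbrm-1(control), and replicate 7 was the lowest library of sec-24.1 in both strains. Its log2 fold change was -0.30 (SE 0.0747, adjusted p = 0.034), and it was not called without pbrm-1(control) replicate 5 (-0.26, adjusted p = 0.077).

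The second, sec-24.2 (WBGene00004756, chromosome IV, 12355600 to 12360792), had 76.2, 66.0, 73.0, 70.3 and 68.8 CPM in pbrm-1(TS-KO), and 82.9, 77.5, 81.2, 71.0 and 78.4 CPM in pbrm-1(control), in the same order of replicates. Here the strains overlapped, since replicate 6 of pbrm-1(control) lay below replicates 1 and 5 of pbrm-1(TS-KO). The log2 fold change of sec-24.2 was -0.14 (95% interval -0.26 to -0.02, adjusted p = 0.138), which did not pass the test over all genes. Of its exonic bases, 3.4% are shared with best-22 on the opposite strand, which did not pass the test either (log2 fold change -0.02, adjusted p = 0.909).

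Since both genes encode SEC-24, their ratio was also compared, with each level divided by its exonic length. Levels of sec-24.1 per length were 1.55, 1.52, 1.61, 1.63 and 1.43 times those of sec-24.2 in pbrm-1(TS-KO) replicates 1, 4, 5, 6 and 7, and 1.76, 1.68, 1.84, 1.83 and 1.53 times in pbrm-1(control). The ratio was lower in pbrm-1(TS-KO) in 5 of 5 replicates, though replicate 7 of pbrm-1(control) lay inside the range of pbrm-1(TS-KO). The mean log2 ratio was lower by 0.16 in pbrm-1(TS-KO), that is -0.16 as a difference, with a two-sided exact permutation p of 0.0397 (n = 5 per strain, 0.00794 being the smallest p this design allows). Tested within replicates, the difference of -0.16 had a sign-flip exact permutation p of 0.0625, the smallest that 5 pairs allow, and without pbrm-1(control) replicate 5 the exact permutation p was 0.0794. The ratio was not called either without pbrm-1(TS-KO) replicate 1, 4 or 7, or pbrm-1(control) replicate 1, 4 or 6.

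TFG-1 is not a coat subunit. It organizes ER exit sites together with SEC-16 and holds COPII there. For tfg-1 (WBGene00006565, chromosome I, 14101322 to 14104470) pbrm-1(TS-KO) replicates 1, 4, 5, 6 and 7 had 51.1, 40.0, 53.5, 52.3 and 43.6 CPM. The same replicates of pbrm-1(control) had 70.6, 60.3, 75.8, 62.7 and 52.7 CPM. It had the largest log2 fold change of the coat genes, -0.42 (SE 0.108, adjusted p = 0.0367), and also the widest spread within strains, 12.4% of the mean in pbrm-1(TS-KO) and 14.0% in pbrm-1(control). Replicate 5 of pbrm-1(TS-KO) lay just above replicate 7 of pbrm-1(control), so the strains overlapped, while each replicate was lower in pbrm-1(TS-KO), by 0.26 to 0.59 on the log2 scale. Without pbrm-1(control) replicate 5 the log2 fold change of tfg-1 was -0.36 (adjusted p = 0.0787).

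**Figure D2:**
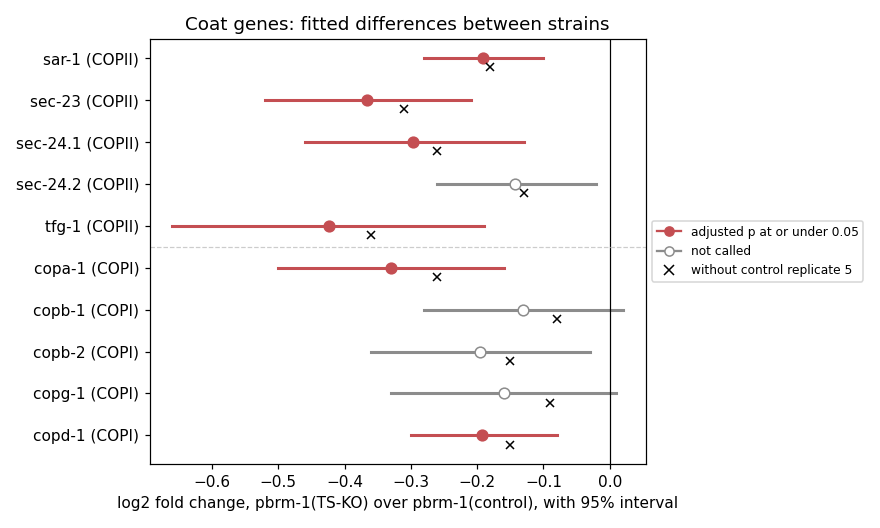
Fitted log2 fold change of each coat gene, pbrm-1(TS-KO) over pbrm-1(control), with its 95% interval. Filled red points passed the adjusted p of 0.05, open grey points did not, and crosses give the value without pbrm-1(control) replicate 5, which lay nearer to 0 for all 10 genes.

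Coatomer has an outer part built from alpha, beta prime and epsilon subunits and an inner, adaptor-like part built from beta, gamma, delta and zeta subunits. The alpha subunit gene copa-1 (WBGene00022119, chromosome I, 2895329 to 2900860) had 162.7, 141.9, 152.2, 149.8 and 140.1 CPM in pbrm-1(TS-KO) replicates 1, 4, 5, 6 and 7. It had 197.3, 172.2, 223.2, 169.0 and 176.5 CPM in pbrm-1(control). The strains did not overlap, and replicate 5 of pbrm-1(control) was the highest. The log2 fold change was -0.33 (SE 0.0783, adjusted p = 0.0271), and it was -0.26 without that library (adjusted p = 0.0388). The beta prime subunit gene copb-2 (WBGene00009542, chromosome IV, 9459731 to 9464020) lay between 135.1 and 163.1 CPM in the pbrm-1(TS-KO) libraries and between 159.6 and 195.5 CPM in the controls, and it did not pass the test (log2 fold change -0.20, 95% interval -0.36 to -0.03, adjusted p = 0.133). Of the settings tried, only DESeq2 with a replicate block called it (adjusted p = 0.0303). Genes on the opposite strand share 2.3% of the exonic bases of copb-2. Among them, F38E11.6 did not pass the edgeR test (log2 fold change -0.02, adjusted p = 0.916).

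In the inner part of coatomer, the delta subunit gene copd-1 (WBGene00015734, chromosome III, 6622700 to 6624972) was the only one called. Its level was 68.9, 65.1, 65.9, 66.1 and 65.9 CPM in pbrm-1(TS-KO) replicates 1, 4, 5, 6 and 7, and 76.3, 75.4, 84.4, 71.9 and 71.3 CPM in pbrm-1(control). The strains did not overlap, and the pbrm-1(TS-KO) libraries were the tightest of any coat gene, with a coefficient of variation of 2.16%. The log2 fold change of copd-1 was -0.19 (SE 0.0508, adjusted p = 0.042), with -0.15 and an adjusted p of 0.0806 without pbrm-1(control) replicate 5 and an adjusted p of 0.072 with no filter on low counts. The exons of copd-1 share 13% of their length with C13B9.2 on the opposite strand. C13B9.2 had 4.89 ± 0.615 CPM in pbrm-1(TS-KO) and 3.67 ± 0.40 CPM in pbrm-1(control) (SD, n = 5), and it was called in the other direction (log2 fold change 0.42, adjusted p = 0.0464). Whether the counting used strand was not stated, so reads in the shared stretch cannot be assigned to either gene.

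The beta and gamma subunit genes gave no call. The beta gene copb-1 (WBGene00021292, chromosome II, 3078796 to 3087682) lay between 131.6 and 149.3 CPM in the pbrm-1(TS-KO) libraries and between 139.7 and 173.8 CPM in the controls, with a log2 fold change of -0.13 (95% interval -0.28 to 0.02, adjusted p = 0.259). The gamma gene copg-1 (WBGene00011775, chromosome IV, 10151947 to 10155654) lay between 99.0 and 112.4 CPM in pbrm-1(TS-KO) libraries and between 105.5 and 140.1 CPM in controls, with -0.16 (95% interval -0.33 to 0.01, adjusted p = 0.232). For both genes the strains overlapped, and the highest control library was replicate 5. Both intervals hold 0.

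The strains did not overlap for 5 of the 10 coat genes, where 4.91% of all genes tested had every pbrm-1(TS-KO) library below every control. Without pbrm-1(control) replicate 5 the count was again 5 of 10, against 5.39%. That library was the lowest control for 0 of the 10 coat genes, so leaving it out could not change their count. Since each replicate of the strains was reared and collected in parallel on a day of its own, the genes were also compared within replicates. In this comparison 8 of 10 were lower in pbrm-1(TS-KO) in all 5 replicates, against 13.8% of all genes, and the exceptions were copb-2 and copg-1, which were lower in 4 of 5. Their exception fell in replicate 6 for both, where the log2 differences were 0.03 and 0.01. With replicate 5 set aside, 8 of 10 were lower in all the other replicates, against 15.9% of all genes. All 10 were lower in replicate 5 and both exceptions fell in replicate 6, so this step could not change the count of coat genes. The median log2 difference over the coat genes was -0.17, -0.26, -0.35, -0.15 and -0.22 in replicates 1, 4, 5, 6 and 7. Replicate 5, whose control stood apart in dpy-7, gave the median farthest from 0, and replicate 6 the nearest. With replicate as a block, edgeR called the same 6 coat genes, against 6.05% of all genes lower. DESeq2 also called these 6 (6.14% of all genes lower), and with the replicate block it called copb-2 as well (7.04%). The call of tfg-1 was lost with limma-voom, which called the other 5 (8.9%), and that of copd-1 with no filter on low counts, where the other 5 were called (1.9%).

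**Figure D3:**
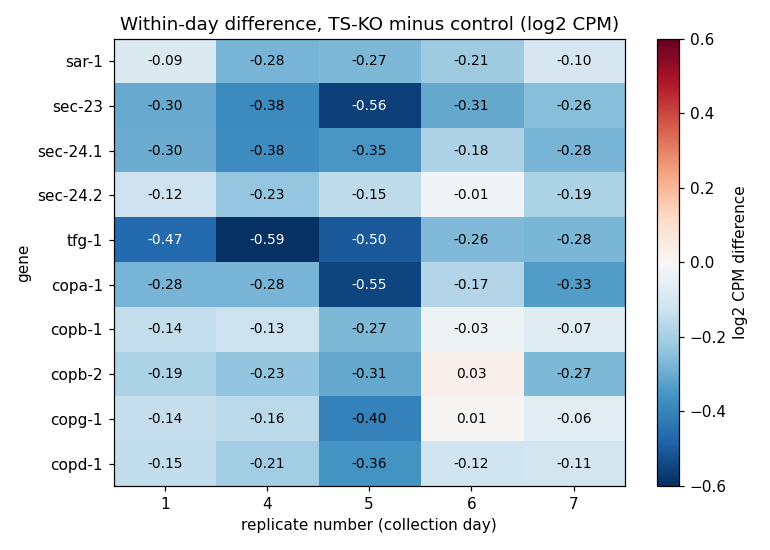
Log2 CPM difference, pbrm-1(TS-KO) minus pbrm-1(control), within each replicate (columns) for each coat gene (lines of the grid), colored from blue (lower in pbrm-1(TS-KO)) to red (higher). Of the 50 cells, 48 are below 0, the exceptions are copb-2 and copg-1 in replicate 6, and the column of replicate 5 has the lowest median, -0.35.

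The coat genes varied together across libraries. The same libraries were high or low for most of them, with replicate 5 the highest of the controls for 8 of 10 and replicate 1 the highest of pbrm-1(TS-KO) for 8 of 10. The lowest pbrm-1(TS-KO) library was replicate 4 for 7 genes and replicate 7 for 3, and the lowest control was replicate 7 for 6 genes and replicate 6 for 4. Over the 10 libraries, which share the strain difference and the collection days, Pearson's r of log2 CPM was above 0 for all 45 pairs of coat genes, from 0.616 for sar-1 with copg-1 to 0.983 for sec-24.1 with tfg-1, with a median of 0.882. After the strain means were removed the median was 0.791, and the highest pair was copa-1 with copg-1 (r = 0.971). By this measure sar-1 followed the others least, with a median r of 0.394 to the other 9, and its lowest value was with sec-24.2 (r = 0.00835). Pairs of other genes were not compared, so whether such values are particular to the coat genes was not tested. The 10 genes lie on 5 chromosomes, 5 of them on chromosome IV.

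Levels were compared between genes only per kilobase of exon. In pbrm-1(control) sar-1 was the highest, at 141 ± 5.91 CPM per kilobase (SD, n = 5). The COPI genes followed, with copb-1 at 48.0 ± 4.47, copa-1 at 47.0 ± 5.70, copb-2 at 46.8 ± 4.21, copd-1 at 42.0 ± 2.91 and copg-1 at 39.6 ± 4.88 CPM per kilobase. The other COPII genes came after them, with sec-24.1 at 36.9 ± 3.31, tfg-1 at 36.5 ± 5.09, sec-23 at 35.1 ± 3.51 and sec-24.2 at 21.3 ± 1.25 CPM per kilobase. Neighbours in this order overlapped in their control ranges, except that sar-1 stood above copb-1 and sec-24.2 below sec-23. The 5 COPI subunits thus had levels within 1 range, from 39.6 to 48.0 CPM per kilobase. The median over 16743 tested genes with a length was 8.71 CPM per kilobase, and the coat genes lay between the 71.4th and the 95.7th percentile of them.

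**Figure D4:**
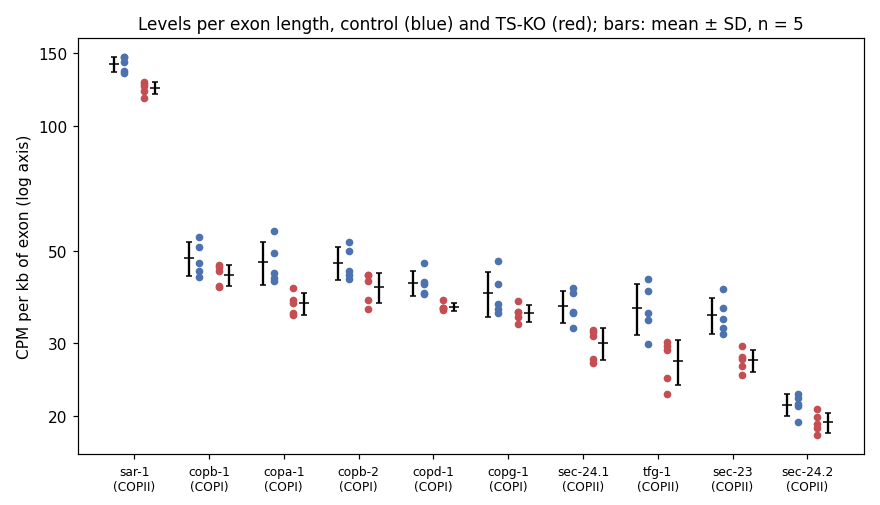
CPM per kilobase of exon for each coat gene on a log axis, with the 5 pbrm-1(control) libraries in blue, the 5 pbrm-1(TS-KO) libraries in red and the mean ± SD beside each. Genes are ordered by their control mean, with sar-1 at 141 and sec-24.2 at 21.3 CPM per kilobase at the ends.

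The other genes of COPII assembly gave 1 call. Among these 5 genes, all 5 were below 0 with a median log2 fold change of -0.11, and 1 was called lower, sec-12, the membrane exchange factor that loads SAR-1 with GTP (-0.16, SE 0.0394, adjusted p = 0.0353). That call was lost with the replicate block (adjusted p = 0.0516) and without pbrm-1(control) replicate 5 (adjusted p = 0.0648). The cage genes did not pass the test, with -0.12 for npp-20, the SEC13 gene whose product is also a nuclear pore protein (adjusted p = 0.232), and -0.11 for sec-31 (adjusted p = 0.158). The exit site scaffold genes sec-16A.1 and sec-16A.2 were at -0.02 and -0.04 (adjusted p = 0.898 and 0.741).

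Of the remaining coatomer subunits, the zeta gene copz-1 had 83.0 CPM in pbrm-1(TS-KO) and 82.8 CPM in pbrm-1(control) (log2 fold change 0.00, adjusted p = 0.981), and the epsilon gene cope-1 had 33.7 and 37.9 CPM (-0.17, adjusted p = 0.213). Neither was called, so with copa-1 and copd-1 the count over the 7 coatomer subunit genes was 2 lower. In the list of other COPI and Arf genes, 5 of 8 names matched a gene and 1 of these was called lower, agef-1, an exchange factor for Arf GTPases (log2 fold change -0.27, SE 0.0597, adjusted p = 0.0212). The value for gbf-1, the exchange factor that activates Arf1 at the Golgi, was -0.14 (adjusted p = 0.218). The value for arf-6 was 0.09 (adjusted p = 0.266). The 3 unmatched names were all Arf names, and 3 Arf genes were looked up after the data had been seen. These may be the unmatched genes under newer names, which could not be checked, and the counts of the list leave them out. Of the 3 looked up, the Arf1 gene arf-1 was at -0.14 (adjusted p = 0.102) and arf-5 at -0.07 (adjusted p = 0.255). The Arf family gene warf-1 had 5.74, 3.53, 6.70, 7.01 and 5.76 CPM in pbrm-1(TS-KO) replicates 1, 4, 5, 6 and 7, and 43.8, 29.3, 34.4, 43.6 and 41.7 CPM in pbrm-1(control). Its strains lay far apart (log2 fold change -2.75, SE 0.180, adjusted p = 1.27e-05), a difference far larger than that of any coat gene, and it was called in every alternative, with adjusted p of at most 0.000459.

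Among the genes whose products travel in these vesicles, 6 of 14 cargo receptor and p24 genes were called lower and 0 higher. Of all genes, 4.28% were called lower, and the median of the 14 was -0.19. The lowest was ile-1, an ERGIC-53-like lectin that carries glycoproteins out of the ER, with 45.5 CPM in pbrm-1(TS-KO) and 64 CPM in pbrm-1(control) (log2 fold change -0.49, SE 0.0900, adjusted p = 0.00752). The others were sft-4, the SURF4 cargo receptor (-0.29, adjusted p = 0.00427), the KDEL receptor gene erd-2.2 (-0.29, adjusted p = 0.03), and the p24 genes sel-9 (-0.25, adjusted p = 0.0079), tmed-3 (-0.26, adjusted p = 0.0252) and tmed-10 (-0.15, adjusted p = 0.0367). The relatives ile-2 and erd-2.1 did not pass the test (-0.03 and -0.14, adjusted p = 0.819 and 0.306). Without pbrm-1(control) replicate 5 ile-1, sft-4 and sel-9 were called, and with the replicate block tmed-1 was called besides the 6 (adjusted p = 0.0472).

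Upstream of the coats, at the channel where proteins enter the ER, all 13 translocon and signal peptidase genes were below 0, with a median of -0.23. Against 4.28% of all genes, 4 of the 13 were called lower. These were the signal peptidase genes spcs-3 (-0.27, adjusted p = 0.005), spcs-2 (-0.27, adjusted p = 0.0232) and sec-11 (-0.21, adjusted p = 0.0249), and dnj-29, the SEC63 gene (-0.16, adjusted p = 0.0459). The channel gene sec-61.A was at -0.20 (adjusted p = 0.292). Without pbrm-1(control) replicate 5 only spcs-3 of them was called. With the replicate block 6 were called, since dnj-29 was lost (adjusted p = 0.0566) and trap-1, trap-3 and spcs-1 were gained (adjusted p = 0.0364, 0.0219 and 0.037).

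At the Golgi end, the SNARE and tether genes, which dock and fuse the vesicles, had a median of -0.06 over 32 genes. Of the 32, 1 was called lower and 1 higher, against 4.28% and 3.44% of all genes. The list holds bet-1, which in the worm is a bromodomain gene and not the SNARE of that name, and over the other 31 genes the median was -0.07 with the same counts. The SNARE gene sec-22 was lower (log2 fold change -0.44, adjusted p = 0.0221) at 8.50 CPM in pbrm-1(TS-KO) against 11.6 CPM in pbrm-1(control), and memb-2, a membrin-type SNARE gene, was higher (0.30, adjusted p = 0.0147) at 20.3 CPM against 16.5 CPM. Of 14 genes for the clathrin coat and its adaptors, which work at the trans-Golgi and the plasma membrane, 0 were called by edgeR or DESeq2 in either direction, 3 had an unadjusted p under 0.05 in edgeR, and the median was -0.05. Over all 6 lists, without arf-1, arf-5 and warf-1, 13 of 83 genes were called lower and 1 higher. Of all genes tested, 4.28% were called lower and 3.44% higher. Without pbrm-1(control) replicate 5 the counts over the lists were 6 and 1, with 3.22% of all genes lower and 2.11% higher in that fit. Differences between the lists were not tested.

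**Figure D5:**
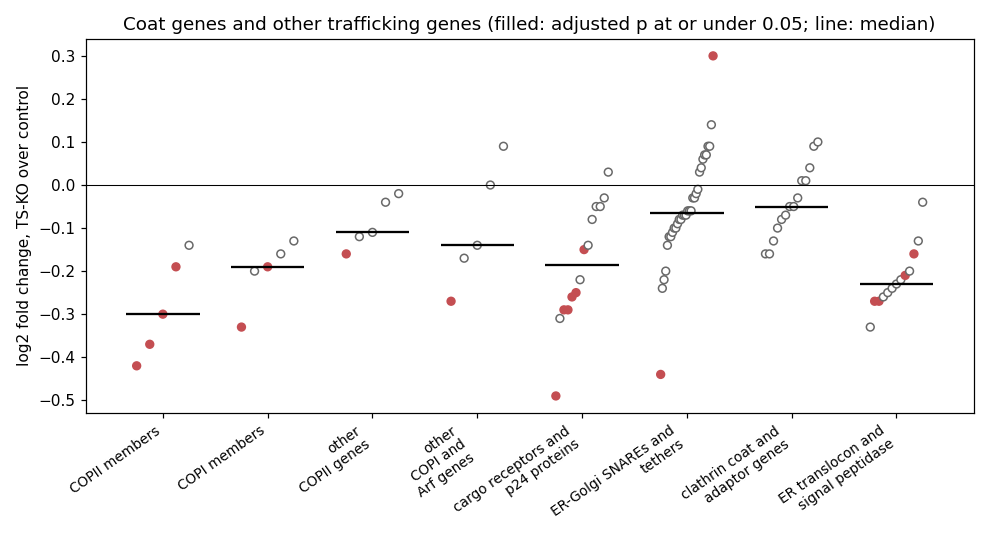
Log2 fold change, pbrm-1(TS-KO) over pbrm-1(control), of each tested gene in the coat groups and in the 6 lists of other trafficking genes. Filled red points passed the adjusted p of 0.05 and black lines are medians, which run from -0.30 for the COPII genes to -0.05 for the clathrin genes.

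The genes whose levels followed the mean log2 CPM of the coat genes most closely over the 10 libraries were slc-30A5 (r = 0.991), R148.3 (r = 0.985), bre-1 (r = 0.984), F07F6.4 (r = 0.980) and C14B9.2 (r = 0.978), chosen from 13736 genes with a mean of at least 1 CPM. Their own log2 fold changes were -0.36, -0.25, -0.41, -0.18 and -0.43. Of these, slc-30A5, R148.3, bre-1 and C14B9.2 were called lower (adjusted p = 0.0344, 0.0335, 0.0248 and 0.0199), and F07F6.4 was not (adjusted p = 0.0977). After the strain means were removed, 1 of the 5 genes most alike was the same.

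Markers of the larval tissues were read beside the coat genes. The summed level of 3 epidermis markers (dpy-7, bli-1 and lin-26) was 62.4 to 79.0 CPM in TS-KO libraries and 71.4 to 151 CPM in control libraries, with 0 of 3 called. Its highest value was in the control library of replicate 5, which was also the highest control for most coat genes. The excess there was mostly dpy-7, at 67.5 CPM against at most 6.18 CPM in the other controls. In that library lin-26 was 81.5 CPM, against at most 77.3 CPM in other controls, and bli-1 was 1.63 CPM, against up to 2.94 CPM. Of 3 intestine markers 1 was called, ifb-2, an intermediate filament gene, which was higher (log2 fold change 0.39, adjusted p = 0.000845). Of the others, ges-1 was at -0.24 (adjusted p = 0.147) and elt-2 at 0.41 (adjusted p = 0.265). Most of the intestine sum was ifb-2, and the sum was 1915 to 2066 CPM in TS-KO libraries and 1489 to 1660 CPM in control libraries. Of 3 germ cell markers 1 was called, glh-1, also higher (0.28, adjusted p = 0.0136), while pgl-1 was at 0.26 (adjusted p = 0.152) and nos-2 at -0.53 (adjusted p = 0.404). For body wall muscle, where the driver acts, 0 of 3 markers were called (myo-3, unc-54 and unc-15), nor were any of the 2 pharyngeal muscle and 3 neuron markers. These 3 markers do not stand for all muscle genes. In the paper, differentially expressed genes of muscle function, such as lev-11, mup-2 and unc-27, were lower in pbrm-1(TS-KO), with only mel-26 higher. The sperm genes msp-3 and msp-142 were at 0 in all libraries and msp-19 had at most 1 count, and the summed yolk genes reached at most 4.16 CPM. The part of these tissue levels in the values of the coat genes was not tested.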

How the data were processed

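RNA from whole early L1 larvae was polyA selected and sequenced as 10 libraries, 5 per strain. After trimming, the authors aligned reads with STAR 2.5.2b, counted uniquely mapped reads in exons with featureCounts of Subread 1.5.2 and deposited raw counts per gene. The methods write the assembly as WBcel325, which was taken as WBcel235, and the use of strand in counting is not given in the sources used here. Of 46756 genes, 46581 are in the annotation release used for positions and exonic lengths.

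Genes passing filterByExpr were tested with edgeR 4.0.16 (quasi-likelihood test, TMM scaling, no covariate, Benjamini-Hochberg adjustment over 16817 genes) in R 4.3.3. DESeq2 1.42.0, limma 3.58.1 (voom with sample quality weights), RLE size factors, no filter, a minimum of 10 counts in every library, a replicate block, and fits without each library or each pair were alternatives. Standard errors were derived from the fold change and the F statistic. A prior count of 2 was used for log2 CPM. Permutation tests were exact, over 252 divisions of the 10 libraries, or over all sign patterns within pairs or all divisions of the libraries left. Intervals are for the fitted log2 fold change between strains and rest on the spread between these libraries. They are not ranges of the libraries, and differences within single replicates can lie outside them.

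The methods state that the strains were grown in parallel, with replicates on different days, so equal numbers were taken as pairs. Correlations of the pairs' deviations from strain means were 0.505, 0.283, 0.124, -0.0514 and 0.351 for replicates 1, 4, 5, 6 and 7.

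The coat genes and lists were chosen with earlier results of these data known. Named genes were all coat genes, called genes of the lists, list genes that a sentence needed, and the 5 genes most alike. Of 93 list names, 10 matched no gene. Overlapping genes, tissue markers, bet-1, arf-1, arf-5 and warf-1 were named besides, the last 4 after the data had been seen, as were the counts of overlap and of pairs without replicate 5.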

Additional observations from a re-analysis of the deposited data

Results flagged for a closer look

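The level of copd-1 in pbrm-1(TS-KO) replicate 1 was 68.9 CPM, while the other 4 libraries of that strain lay between 65.1 and 66.1 CPM. The gap to the nearest library was 0.752 of the strain's whole range, above the critical value of 0.71 for 5 samples in Dixon's test. Of 22 groups of 5 libraries that were tested in this way, chance alone marks about 1 in 20. Without this library the log2 fold change of copd-1 was -0.21 and its adjusted p was 0.0594, against 0.042 with it.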

How the results depend on the processing

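In 22 alternatives all 220 log2 fold changes of the 10 coat genes stayed below 0. The alternatives reused the same libraries or some of them, so these values are not independent. The number called lower was 5 to 7 with the other tools, filters and scaling, and 0 to 6 in the fits without 1 library or 1 pair. Of single libraries, leaving out pbrm-1(TS-KO) replicate 4, 5, 6 or 7 or pbrm-1(control) replicate 5 left 2 calls, pbrm-1(control) replicate 1 or 4 left 3, pbrm-1(TS-KO) replicate 1 or pbrm-1(control) replicate 6 left 4, and pbrm-1(control) replicate 7 left 6. Of pairs, leaving out replicate 1 left 2 calls, replicate 4 or 5 left 1, replicate 6 left 0 and replicate 7 left 4. Of the 6 called genes, limma-voom did not call tfg-1 (-0.28, adjusted p = 0.0547) and the test with no filter did not call copd-1 (adjusted p = 0.072). The fit without the pair of replicate 6 was also the only one in which sec-23 was not called (adjusted p = 0.0578). The fits without 1 library or 1 pair have fewer libraries. Over all genes they called between 408, without the pair of replicate 6, and 1204. The counts were 1299 with all libraries, 1915 with DESeq2, 1826 with the edgeR block and 2899 with limma-voom. Calls in the 6 trafficking lists numbered 14 with all libraries and 3 to 12 in the fits without 1 library or 1 pair. The replicate block called 6 coat genes in edgeR and 7 in DESeq2. Under the block the log2 ratio of sec-24.1 to sec-24.2 differed by -0.16, with an exact permutation p of 0.0625, and between -0.20 and -0.13 without each library in turn, with exact permutation p from 0.0159 to 0.0794. Counting error was small, at most 2.34% of a coat gene's level.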
